A study of Mus musculus with 4 samples.

Results

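The effect of mechanical strain on osteoblast precursors kept in the medium of prostate cancer cells was described by setting the library of cells given both treatments against the library of cells given the medium alone. All genes that reached 30 counts in the higher of these libraries were compared, which were 11910 of the 41288 genes in the table. The cells were MC3T3-E1, an established mouse pre-osteoblastic line from skull that can mature into osteoblasts, with the genotype WT in every group. The medium came from PC-3, a human prostate cancer cell line, and replaced the growth medium of confluent cells. Strain was tensile, at 2500 microstrain and 0.5 Hz for 1 h per day. RNA sequencing covered 4 groups with 1 library each: untreated control cells, cells under strain, cells in conditioned medium, and cells in conditioned medium under strain. No group had medium conditioned by another cell type. The number of days of treatment and the time from the last bout of strain to harvest were, in the sources used here, not given.

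The libraries held between 10007546 and 10997085 counts. With 1 library a group there is no replicate check and no test: strain and any other difference between the cultures cannot be told apart. Levels are RPKM, reads scaled to gene length and library total, always listed in the order control, strain, conditioned medium, conditioned medium plus strain. A fold is the ratio of a gene's share of counts in the libraries compared, and brackets hold 95% intervals that cover counting error only. The count columns carry single letters, of which the sample titles do not spell out T; it was read as conditioned medium by elimination. If T stood for tensile, the comparison would be that of conditioned medium against none in strained cells. Osteoblast identity held at the level of markers: 8 of 10 osteoblast markers reached 30 counts, against 0 of 6 epithelial, 0 of 6 endothelial and 0 of 7 adipocyte markers, 2 of 8 chondrocyte, 2 of 8 muscle and 3 of 8 macrophage and osteoclast markers. The summed level of the osteoblast markers was 6101 RPKM in conditioned medium and 6213 RPKM with strain added. The macrophage and osteoclast list summed to 49.0 and 42.5 RPKM and the epithelial list to 0.203 and 0.135 RPKM. Some late markers were nearly absent: Bglap (osteocalcin) and Ibsp (bone sialoprotein) had at most 3 and 12 counts in these 2 libraries, and Sost (sclerostin) had 0. The osteocyte gene Dmp1 was not, with 176 counts in conditioned medium and 165 with strain added.

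As background, immediate early genes encode transcription factors such as the AP-1, EGR and NR4A families, whose RNA appears within minutes of a stimulus, needs no new protein and is soon degraded. Kinases of the ERK family drive many of them, and the same pulse switches on its own brakes, among them the dual-specificity phosphatases and RNA decay factors such as the Zfp36 protein. In bone cells a bout of loading is known to induce Fos, Egr1 and Ptgs2 transiently, so their level depends on when cells are collected.

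With strain in conditioned medium the immediate early and feedback genes Fosb, Fos, Klf2 and Dusp1 were 2-fold lower or more, and most other genes past that size had few counts. A 2-fold lower value was found for 31 genes (0.260% of those compared) and a 2-fold higher value for 14 (0.118%). Of the 31 genes, 7 reached 100 counts in the higher library: Fosb, Fos, Klf2, Dusp1, Id1, 1810011O10Rik and Gm34921. All 14 higher genes had fewer than 100 counts, between 31 and 71. The median log2 ratio over all genes compared was -0.03, with 7170 genes (60.2%) below a ratio of 1 and 4740 above it. Counts of list members that were lower are to be read against that 60.2%. At 300 to 999 counts the central 90% of 4265 genes lay between ratios of 0.852 and 1.12, and at 1000 counts or more that of 2525 genes lay between 0.893 and 1.06.

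**Figure D1:**
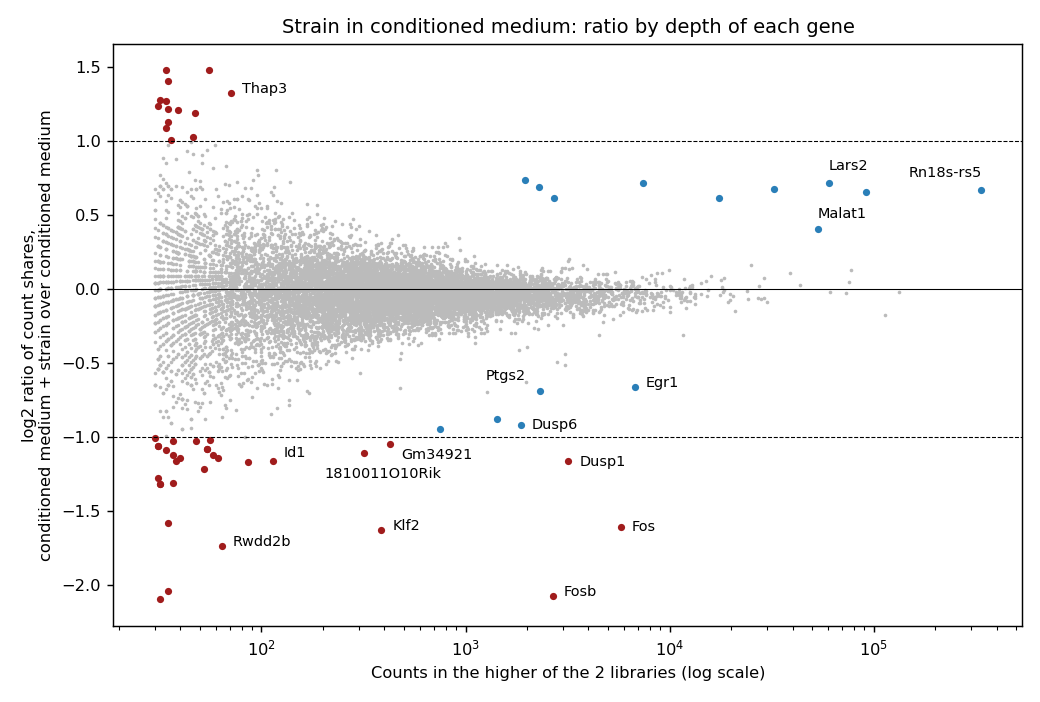
Each point is a gene that reached 30 counts; the x axis is that count (log scale) and the y axis the log2 ratio of count shares with strain over without strain, both in conditioned medium. Red points passed 2-fold (dashed lines) and blue points are other genes whose interval lay farthest from 1. Fosb, Fos, Klf2 and Dusp1 lie below the dashed line at 387 to 5792 counts, whereas all 14 genes above the upper line have 71 counts or fewer.

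The regulatory regions of the 4 transcription and signalling genes with the lowest well-counted ratios are shown. Cyclic AMP response elements are known in promoters of this kind. The 4 genes were picked by these ratios, so that all 4 were lower is no finding here. Each sequence is the 250 bases before the RefSeq transcript start (GRCm38.p6), 5′ to 3′ on the gene's strand. The RefSeq start of Fosb lies inside the span that the deposited table gives the gene, so its window overlaps that span. Capitals mark the core TGACG of the element, or its full palindrome where present. Fosb lies on the minus strand at chr7:19310046-19310295, Fos on the plus strand at chr12:85473640-85473889, Klf2 on the plus strand at chr8:72318812-72319061 and Dusp1 on the minus strand at chr17:26508473-26508722.
Fosb: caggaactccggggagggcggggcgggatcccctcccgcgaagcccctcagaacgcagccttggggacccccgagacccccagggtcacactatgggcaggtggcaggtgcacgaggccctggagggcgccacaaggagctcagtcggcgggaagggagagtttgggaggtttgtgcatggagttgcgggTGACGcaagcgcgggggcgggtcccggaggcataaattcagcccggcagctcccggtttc
Fos: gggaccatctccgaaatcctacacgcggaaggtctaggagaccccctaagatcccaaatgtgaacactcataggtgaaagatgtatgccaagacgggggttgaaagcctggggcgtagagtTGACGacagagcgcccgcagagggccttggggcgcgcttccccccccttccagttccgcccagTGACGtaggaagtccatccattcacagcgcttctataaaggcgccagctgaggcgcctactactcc
Klf2: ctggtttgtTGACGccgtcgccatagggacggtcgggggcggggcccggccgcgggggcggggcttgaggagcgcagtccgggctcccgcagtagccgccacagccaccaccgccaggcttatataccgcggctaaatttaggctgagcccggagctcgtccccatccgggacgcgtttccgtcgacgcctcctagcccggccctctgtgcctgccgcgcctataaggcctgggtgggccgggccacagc
Dusp1: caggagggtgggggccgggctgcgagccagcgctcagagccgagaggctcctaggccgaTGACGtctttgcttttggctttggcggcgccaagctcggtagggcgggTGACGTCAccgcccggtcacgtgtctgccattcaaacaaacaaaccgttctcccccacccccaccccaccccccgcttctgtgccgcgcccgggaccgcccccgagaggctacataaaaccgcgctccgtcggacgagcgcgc
The letters TGACG were searched on both strands, and each of the 4 windows held them. Of the 12 protein-coding genes among the 15 whose intervals lay farthest below 1, 8 had a promoter window to search. For Egr1, Rwdd2b, Id1 and 1810011O10Rik no window was available. Of the 8 windows, 5 held TGACG: Nr4a1 was the fifth, and Dusp6, Zfp36 and Ptgs2 held none. Over 32851 RefSeq promoter windows of the same length, 17.8% held these letters. They began at position -60 from the start in Fosb, at -129 and -66 in Fos, at -241 in Klf2 and at -191 and -143 in Dusp1. In Dusp1 the last of these is part of the palindrome TGACGTCA, which contains TGACG on each strand and was present in 1.55% of all windows. A CArG box, the serum response element core, was in none of the 4 windows, in 1 of the 8 (Zfp36) and in 1.47% of all. Bases farther upstream than 250 were not searched, so a box there would be missed. Such matches are descriptions of the sequence and not evidence of binding. Id1 and 1810011O10Rik, the other protein-coding genes of the group, are named only.

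Members of AP-1, the dimeric transcription factor of Fos and Jun proteins, were lower in all 10 genes compared, with a median log2 ratio of -0.29. Fosb, on chromosome 7 at 19302696 to 19310226 (GRCm38), had 164, 47.8, 63.7 and 15 RPKM. Its level was lowest with both treatments and highest in the control, and both single treatments lay between. Strain in conditioned medium gave a 4.24-fold lower value (3.88 to 4.64), on 595 against 2685 counts, while strain in ordinary medium gave a 3.44-fold lower one (3.27 to 3.62). Fos, on chromosome 12 at 85473901 to 85477269, had 490.2, 235, 259.6 and 84.9 RPKM, in the same order of libraries. Here the folds were 3.06 lower (2.90 to 3.23) in conditioned medium and 2.08 lower (2.02 to 2.15) in ordinary medium. For both genes the counting intervals of the 2 media did not overlap, but with single libraries the difference itself was not tested.

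The Jun partners differed far less than the Fos genes. Junb had 194, 147, 157 and 116 RPKM and was 1.36-fold lower (1.28 to 1.43), Jun had 141, 123, 132 and 106 RPKM and was 1.24-fold lower (1.19 to 1.30), and Jund was 1.21-fold lower (1.13 to 1.28). All 3 were lowest in the library with both treatments. Fosl1, which encodes the AP-1 protein Fra-1, behaved otherwise across the libraries. It had 30.6, 45.5, 91.7 and 74.5 RPKM, so that it was highest in conditioned medium alone. Its value was 1.23-fold lower with strain in conditioned medium (1.14 to 1.33) and 1.49-fold higher with strain in ordinary medium (1.34 to 1.66). Fosl2 stayed within 1.05-fold (1.00 to 1.09).

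The list of EGR zinc finger factors, their co-repressors Nab1 and Nab2 and the NR4A orphan nuclear receptors had lower values in 6 of 8 genes, with a median of -0.47. Nab1 was 1.16-fold lower (1.05 to 1.28) and Nab2 1.04-fold higher (0.970 to 1.11). Nr4a1 had 34.1, 15.2, 13.9 and 7.2 RPKM, and Egr1 had 320.4, 236, 207 and 131 RPKM. Egr3 had 13.4, 7.49, 3.85 and 2.36 RPKM. All 3 were highest in the control and lowest with both treatments. In conditioned medium Nr4a1 was 1.93-fold lower with strain (1.70 to 2.19), Egr3 1.63-fold (1.26 to 2.11) and Egr1 1.58-fold (1.52 to 1.65). Egr2 was 1.33-fold lower (1.24 to 1.43) and Nr4a2 1.45-fold (1.15 to 1.83). Nr4a3, at 36 against 35 counts, had a ratio of 1.10 with an interval from 0.669 to 1.80, which leaves its direction unresolved at this depth.

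Among the Kruppel-like factors, zinc finger proteins that include a flow-induced regulator of the vessel wall, Klf2 stood apart. It lies on chromosome 8 at 72319062 to 72321654 and had 35.0, 12.2, 20 and 6.44 RPKM. The value was lower with strain in both pairs of libraries, 3.11-fold (2.52 to 3.85) in conditioned medium and 2.87-fold (2.47 to 3.34) in ordinary medium, with intervals that overlap. Klf4 had 138, 94.6, 94.9 and 66.5 RPKM and was 1.43-fold lower (1.35 to 1.51). Klf6 was 1.13-fold lower (1.05 to 1.20) and Klf10 1.07-fold lower (0.958 to 1.19). In all 7 of 10 members were lower, near the 60.2% of all genes, and the median was -0.12.

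Among 12 genes of negative feedback on the ERK kinases, 2 were at least 1.5-fold lower, Dusp1 and Dusp6. Dusp1, a phosphatase that inactivates MAP kinases (chromosome 17, 26505591 to 26508472), had 197, 103, 154 and 69.1 RPKM. Its value was 2.23-fold lower (2.09 to 2.38) with strain in conditioned medium and 1.92-fold lower (1.82 to 2.02) in ordinary medium. Dusp6, the cytoplasmic ERK phosphatase, had 102, 82.8, 62.4 and 33.0 RPKM. The folds for Dusp6 were 1.89 lower (1.74 to 2.04) in conditioned medium and 1.23 lower (1.17 to 1.30) in ordinary medium. The predicted gene Gm34921, 2.07-fold lower (1.74 to 2.47), overlaps Dusp6 by 626 bases on the opposite strand. The strand setting of the counting is not given, so the reads of this pair within those 626 bases cannot be told apart. How many reads fall there was not tested. Spry2, another brake on the pathway, had 6.54 and 6.78 RPKM in conditioned medium without and with strain, a ratio of 1.04 (0.861 to 1.25). Spry1 was 1.35-fold higher (0.880 to 2.09). Of the 12 feedback genes 9 were lower (8 under DESeq2 size factors), with a median of -0.12.

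Zfp36 encodes tristetraprolin, which binds AU-rich elements and promotes decay of cytokine and immediate early RNA. Zfp36 had 121, 69.8, 76.1 and 41.3 RPKM and was 1.84-fold lower with strain in conditioned medium (1.68 to 2.02). Btg2, an antiproliferative gene whose protein recruits deadenylases, had 57.9, 45.5, 38.6 and 23.9 RPKM and was 1.62-fold lower (1.48 to 1.77). Zfp36l1, a relative of Zfp36, was 1.08-fold lower (1.02 to 1.15). The decay list had 8 of 11 members lower (7 under DESeq2 size factors, with a median of -0.05) and a median of -0.08, and Zfp36 and Btg2 were its 2 members past 1.5-fold. Ier2, an immediate early nuclear protein gene, had 149, 128, 123 and 79.3 RPKM and was 1.55-fold lower (1.44 to 1.66). Hes1, a repressor downstream of Notch, had 15.9, 11.4, 7.38 and 4.39 RPKM and was 1.68-fold lower (1.26 to 2.25).

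**Figure D2:**
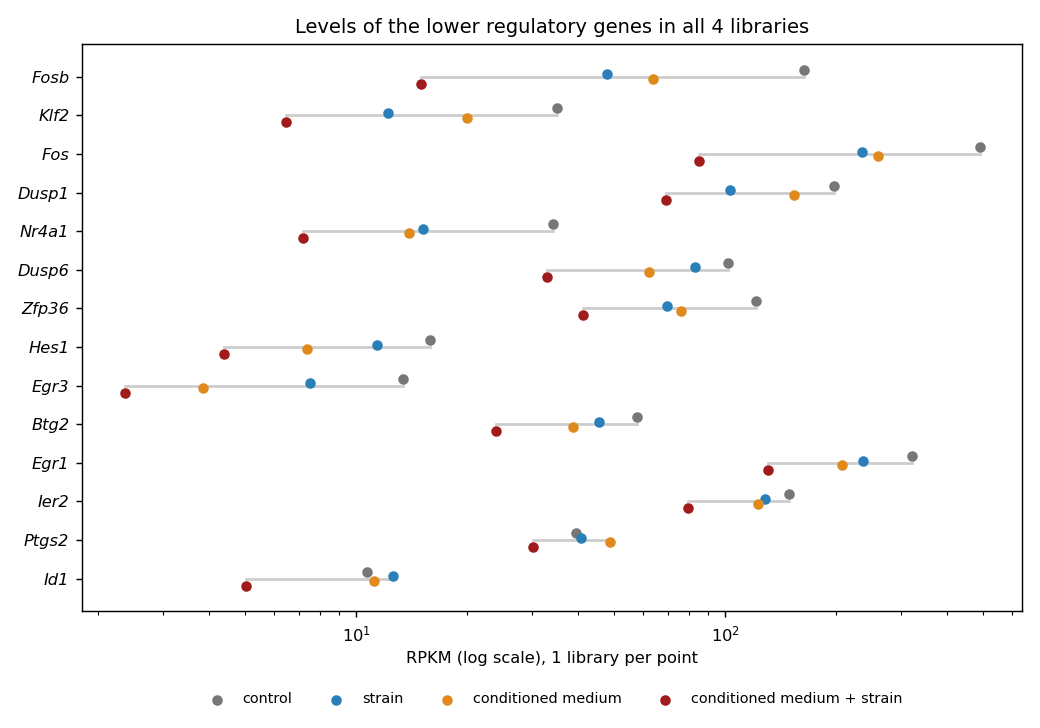
RPKM (log scale) of 14 genes in the 4 libraries, 1 point per library: the 12 immediate early and feedback genes at least 1.5-fold lower with strain in conditioned medium, and Ptgs2 and Id1. The library with both treatments is the lowest in every gene shown. The genes were picked for a lower value there than in conditioned medium, so this rank is largely set by the pick. Of all 29 genes with at least 100 counts and a 1.5-fold lower value, 28 were lowest there. The control is the highest in all but Ptgs2 and Id1.

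Over the 6 lists of immediate early, feedback and decay genes, 72 of 79 genes could be compared. Of these 58 were lower and 14 higher. A 1.5-fold lower value was found for 12 and a 1.5-fold higher value for 0, where 1.23% of all genes compared were lower and 0.823% higher by that size. The lists were chosen with earlier results of these data known, so these shares are descriptions and no independent support. The median log2 ratio was -0.17, against -0.03 over all genes compared. The library with both treatments was the lowest of the 4 for 36 of the 72 genes, and for 33.8% of all genes compared. Myc, a proliferation factor often grouped with early genes, had 16.2, 16.8, 18.9 and 16.6 RPKM, a ratio of 0.876 whose fold interval (0.998 to 1.31 lower) includes 1.

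A smaller set of genes was lower with strain in conditioned medium and not in ordinary medium by size, without a test of that difference. Id1, an inhibitor of helix-loop-helix factors and a target of BMP signalling (chromosome 2, 152736234 to 152737410), had 10.7, 12.6, 11.2 and 5.02 RPKM. Only the library with both treatments stood low among the 4. The fold was 2.23 lower (1.58 to 3.19), against 1.18 higher (0.910 to 1.54) with strain in ordinary medium. Its relatives Id2 and Id3 were 1.36-fold (1.10 to 1.69) and 1.24-fold (1.00 to 1.55) lower. Id4, the most abundant of the 4, had 309, 242, 185 and 176 RPKM, 1.05-fold lower (0.997 to 1.10) in conditioned medium and 1.28-fold lower (1.23 to 1.33) in ordinary medium. The inhibitory Smad genes, also BMP and TGF-beta targets, were split. Smad7 was 1.24-fold lower (1.05 to 1.47) and Smad6 had 73 counts in each library. The BMP list had 14 of 18 members lower, a median of -0.12, and Id1 alone past 1.5-fold.

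Prostaglandin and nitric oxide genes carry signals that loaded bone cells are known to release. Ptgs2, the inducible cyclooxygenase, had 39.5, 40.6, 48.8 and 30.2 RPKM. It was highest in conditioned medium and lowest with both treatments, with a fold of 1.62 lower (1.51 to 1.73) in conditioned medium and 1.03 higher (0.965 to 1.10) in ordinary medium. Ptger4, a receptor for prostaglandin E2, had 1.20, 1.37, 2.11 and 1.20 RPKM and was 1.76-fold lower (1.18 to 2.65), on 40 against 75 counts. The downstream synthase Ptges and the constitutive cyclooxygenase Ptgs1 were within 1.02-fold (0.964 to 1.07) and 1.04-fold (0.976 to 1.11). All 11 genes of the list were lower (9 under DESeq2 size factors), and its median was -0.12. Sgk1, a kinase gene of the early response, had 45.0, 45.0, 63.6 and 45.1 RPKM: the conditioned medium library alone stood high, and the fold was 1.41 lower (1.33 to 1.5). The RIKEN cDNA gene 1810011O10Rik had 19.4, 21.5, 22.4 and 10.4 RPKM, a 2.16-fold lower value (1.77 to 2.66) in conditioned medium and a 1.11-fold higher one (0.940 to 1.31) in ordinary medium.

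**Figure D3:**
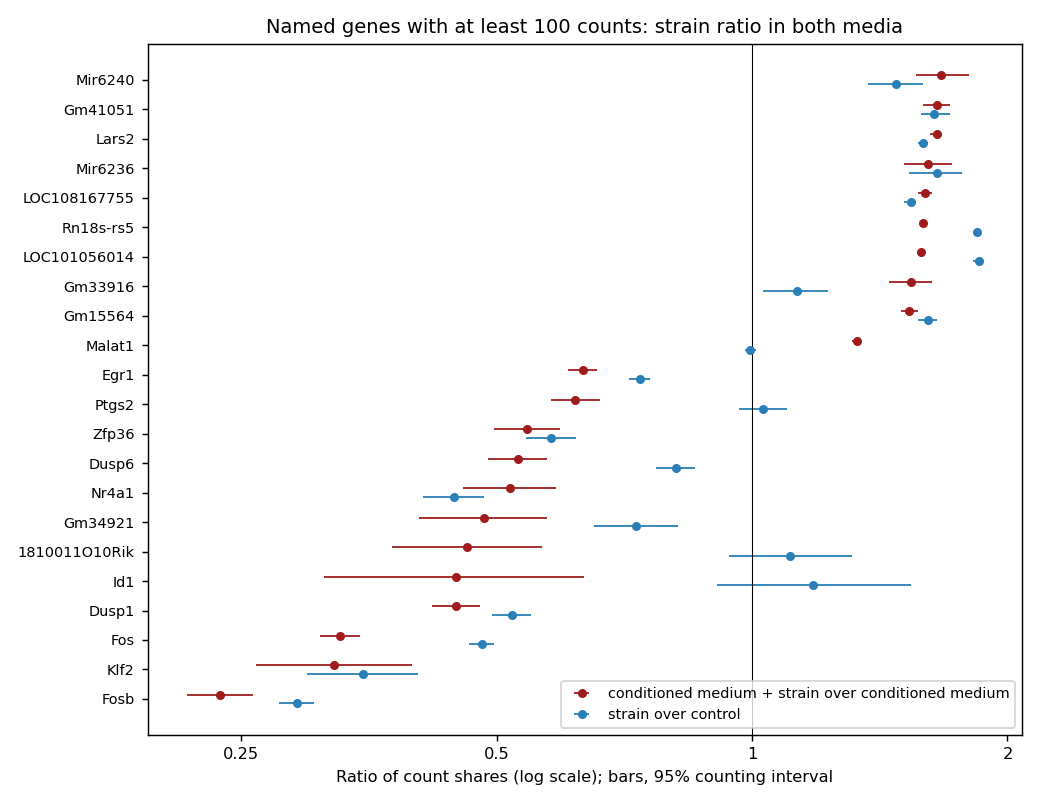
Ratios of count shares (log scale) with 95% counting intervals for the 22 named genes with at least 100 counts, in conditioned medium (red) and in ordinary medium (blue). Fosb, Fos, Klf2, Dusp1, Nr4a1 and Zfp36 lie left of 1 in both media, while Id1, 1810011O10Rik and Ptgs2 lie left of 1 in conditioned medium and right of 1 in ordinary medium.

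The lower genes were compared with the other pair of libraries, strain against control, which shares no library with the first. Of the 7 genes with at least 100 counts and a 2-fold lower value, 5 were also below a ratio of 1 there. So were 5724 of all 9945 genes with 100 counts. At least 1.5-fold lower there were 4 of the 7, and 0.392% of the 9945. Of the whole group of 31 genes, 19 were below 1 there, against 6777 of all 11910 genes. By 1.5-fold, 6 of the 31 were lower and 3 higher there. In that pair as a whole 0.341% of 12025 genes were 2-fold lower and 0.324% 2-fold higher, and 2.04% and 1.85% passed 1.5-fold.

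The remaining 24 genes of the 2-fold lower group had fewer than 100 counts and wide intervals. Rwdd2b had 1.86, 1.82, 2.85 and 0.855 RPKM, on 18 against 64 counts in the pair compared, and was 3.34-fold lower (1.95 to 5.99). The predicted genes Gm26799 and Gm40820 had the largest folds, 4.29 (1.86 to 11.5) and 4.11 (1.87 to 10.2), on 7 and 8 counts with strain. Frat2, a Wnt pathway protein that binds the kinase GSK3, was 2.2-fold lower (1.37 to 3.63), and Dlx6, a homeobox gene of skeletal development, 2.08-fold (1.07 to 4.23). Others were 2500002B13Rik, 2810410L24Rik, 4933408B17Rik, D630003M21Rik, Dynlt1f, E030042O20Rik, Fam212a, Gm12963, Gm15283, Gm30627, Gm38529, Gm38675, Hist1h2be, Mir7084, Myo18b, Ssc4d, Tcam1 and the mitochondrial tRNA gene TrnH. Several overlap a more abundant gene: Gm15283 lies across 12831 bases of Hif1a on the other strand, and Hist1h2be belongs to a family of near-identical copies, so their counts are uncertain. At the count minimum itself, the 36 genes with exactly 30 counts held 0 higher and 1 lower gene, and the 47 genes with 29 counts, left out, would have held 0 and 2.

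Genes higher with strain in conditioned medium were fewer by size. Thap3, which encodes a THAP zinc finger protein, had 5.14, 4.77, 2.53 and 6.37 RPKM. The conditioned medium library is the low value among these 4, and the fold of 2.52 (1.62 to 4.0) rests on 71 against 30 counts. Ccl9, a macrophage-attracting chemokine, had 0.363, 0.527, 0.561 and 1.30 RPKM and a fold of 2.31 (1.29 to 4.29). Apold1, an apolipoprotein L domain gene induced early in endothelium, had 0.609, 0.795, 0.400 and 1.06 RPKM and a fold of 2.66 (1.40 to 5.36). Both were highest with both treatments, on 39 and 35 counts. Rmrp, the RNA of ribonuclease MRP, had 1.32, 6.10, 5.80 and 12.4 RPKM, on 4, 18, 17 and 34 counts. It was 2.13-fold higher (1.16 to 4.07). All 3 treated libraries exceeded the control, whose value rests on those 4 counts. The other 2-fold higher genes were 6530403H02Rik, AU021092, Acoxl, Gm12404, Gm15545, Gm30948, Gm35692, Gm41696, Gm42092 and Psme2b. Rel, an NF-kappaB subunit, had 2.82, 3.21, 2.61 and 4.56 RPKM and was 1.75-fold higher (1.29 to 2.37). Its inhibitor Nfkbia was 1.18-fold lower (1.05 to 1.32). Of the 13 genes of the pathway 9 were lower (8 under DESeq2 size factors), near the 60.2% of all genes. The median log2 ratio of the pathway was -0.04, against -0.03 over all genes.

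At high counts the upward ratios belonged mainly to the ribosomal RNA locus and a few other abundant features. Rn18s-rs5, at the ribosomal RNA locus of chromosome 17, had 8214, 15132, 11439 and 18159 RPKM. It was higher with strain in both media, 1.59-fold (1.58 to 1.60) in conditioned medium and 1.84-fold (1.83 to 1.85) in ordinary medium. Together with the neighbouring LOC101056014 it took 1.93%, 3.56%, 2.69% and 4.27% of all counts in the 4 libraries. Lars2, a leucyl-tRNA synthetase gene of mitochondria, had 775, 1232, 893 and 1469.8 RPKM, a fold of 1.65 (1.62 to 1.67) in conditioned medium and 1.59 (1.57 to 1.61) in ordinary medium. LOC108167755, Gm41051, Gm15564, Mir6240 and Mir6236 had folds between 1.53 and 1.67. The treatment of multiply placed reads is not given. Whether the reads counted at Lars2 and these features stem from their own transcripts was not tested. A 1.5-fold higher value was found for 16 genes with at least 100 counts. In ordinary medium 15 of them were above a ratio of 1 and 8 at least 1.5-fold higher. There 4221 of 9945 genes with 100 counts were above 1 and 0.644% were 1.5-fold higher. The 8 included Rn18s-rs5, LOC101056014, Lars2, Gm41051, LOC108167755, Mir6236 and Gm15564, which may not be separate signals. Whether these features share reads was not tested. The share of counts at the ribosomal locus was higher with strain in both media, beside the lower early genes. With totals that left out this locus, the ratios in conditioned medium were 0.240 for Fosb, 0.332 for Fos, 0.327 for Klf2 and 0.456 for Dusp1. With all counts they were 0.236, 0.327, 0.322 and 0.448. Any other part of the locus in those results was not tested.

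Malat1, an abundant nuclear long non-coding RNA, differed from these features. It had 593, 589, 575 and 763 RPKM, so that only the library with both treatments stood high. The fold was 1.33 higher (1.31 to 1.34) in conditioned medium and 1.01 lower (0.993 to 1.02) in ordinary medium. Neat1, the scaffold RNA of paraspeckles from the same chromosome region, had 43.6, 41.6, 54.1 and 52.1 RPKM and a 1.04-fold lower value (1.01 to 1.07). The predicted gene Gm33916 had 92.4, 104, 198 and 304 RPKM and was 1.54-fold higher (1.45 to 1.63).

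Genes high in conditioned medium in earlier results differed little when strain was added. The list of 23 was chosen on these same samples, so its level in conditioned medium is no finding. With strain added, 17 were lower and 6 higher (10 lower under DESeq2 size factors), 0 passed 1.5-fold, and the ratios ran from 0.812 to 1.24 with a median log2 of -0.02. Mmp13, the collagen-degrading collagenase 3, had 5.47, 7.43, 91.3 and 89.2 RPKM, a ratio of 0.978 (a fold of 1.02 lower, 0.967 to 1.08). Il6, an inflammatory cytokine, had 3.98, 4.82, 18.7 and 18.5 RPKM, and Nos2, the inducible nitric oxide synthase, 1.31, 1.33, 7.80 and 7.73 RPKM. For these 3 genes the libraries with conditioned medium stood well above those without, and the counting intervals of the strain ratio include 1. Osmr, the oncostatin M receptor, had 21.9, 25.3, 85.4 and 74.1 RPKM and was 1.15-fold lower (1.11 to 1.20), and Hp (haptoglobin) had 0.947, 1.04, 13 and 16.1 RPKM and was 1.24-fold higher (1.02 to 1.52).

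**Figure D4:**
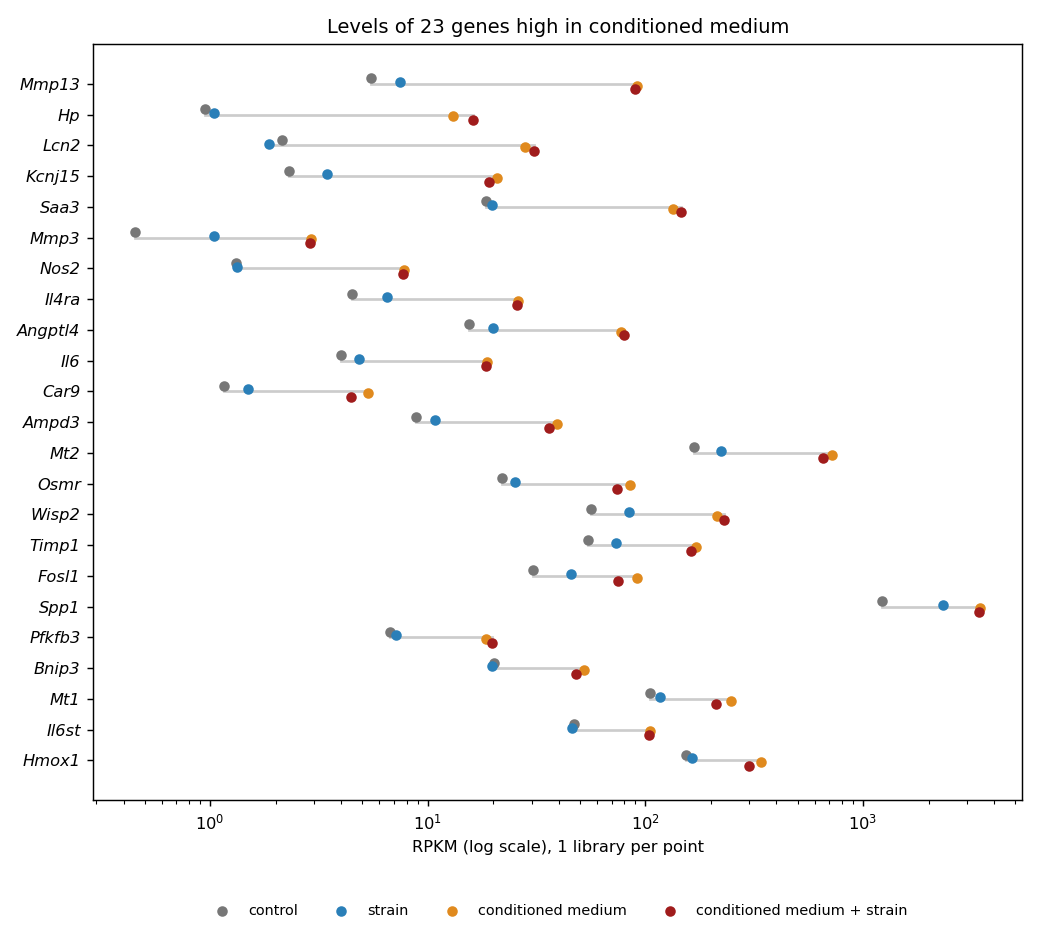
RPKM (log scale) of 23 genes chosen for high values in conditioned medium, 1 point per library. The points for conditioned medium with and without strain lie close together in every gene, with ratios from 0.812 to 1.24.

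The mineralization genes Dmp1, Spp1, Phex and Ank stood higher with strain in ordinary medium and showed no such difference in conditioned medium. Dmp1, a matrix phosphoprotein of osteocytes, had 10.6, 41.2, 5.30 and 5.29 RPKM. The strain library stood high, 3.91-fold (3.48 to 4.40) above control, while in conditioned medium the counts were 165 with strain and 176 without, an interval that allows up to 1.25-fold lower. Spp1 (osteopontin) had 1223, 2338, 3455 and 3412 RPKM, 1.91-fold higher (1.88 to 1.94) in ordinary medium and 1.01-fold lower (1.00 to 1.02) in conditioned medium. Phex, an endopeptidase gene of phosphate balance, was 2.0-fold higher (1.36 to 2.99) in ordinary medium and had a ratio of 1.00 in conditioned medium (0.727 to 1.38). Ank, a pyrophosphate transporter, had 36.8, 51.8, 23.3 and 23.9 RPKM, 1.41-fold higher (1.31 to 1.51) and 1.02-fold higher (0.930 to 1.13). These 4 genes were picked with their values known, and the difference between media was not tested. Runx2, the master regulator of the lineage, had 16.3, 14.3, 12.3 and 12.3 RPKM, and Col1a1, type I collagen, 484, 587, 459.6 and 484 RPKM, 1.05-fold higher (1.04 to 1.07). In the mineralization list 9 of 19 members were lower, 10 higher and 0 past 1.5-fold in conditioned medium. The list median was 0.00 there and 0.03 for strain in ordinary medium, so the list as a whole was not higher in either by much.

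Structural, metabolic and stress programmes differed by small amounts. Collagens and fibrous matrix genes were higher in 15 of 24 (median 0.07) and cell cycle genes in 33 of 40 (median 0.07, against 0.30 for strain in ordinary medium). Mki67, the proliferation antigen, had 45.4, 54.8, 26.5 and 29.3 RPKM and was 1.10-fold higher (1.05 to 1.16), and Cdc20, an activator of the anaphase-promoting complex, was 1.32-fold higher (1.01 to 1.73). Hypoxia and glycolysis genes were lower in 23 of 28 (median -0.12) and oxidative stress and metallothionein genes in 19 of 21 (median -0.14), with 0 past 1.5-fold in either list. Hmox1, heme oxygenase, had 153, 163, 338 and 299 RPKM and was 1.13-fold lower (1.09 to 1.18), and Mt1, a metal-binding protein, was 1.17-fold lower (1.10 to 1.25). Both stood higher in the libraries with conditioned medium. Targets of the mechanosensitive YAP and TEAD factors were lower in 15 of 17 (12 under DESeq2 size factors), with a median of -0.07: Cyr61 had 718, 578, 537 and 434 RPKM and was 1.24-fold lower (1.20 to 1.27), while Ctgf had 12.7, 21.3, 16.9 and 15.8 RPKM and was 1.06-fold lower (0.925 to 1.22). Integrins, contractile genes, Wnt, TGF-beta, sterol synthesis and ribosomal protein lists had medians between -0.04 and -0.01, and between -0.01 and 0.03 with DESeq2 size factors.

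**Figure D5:**
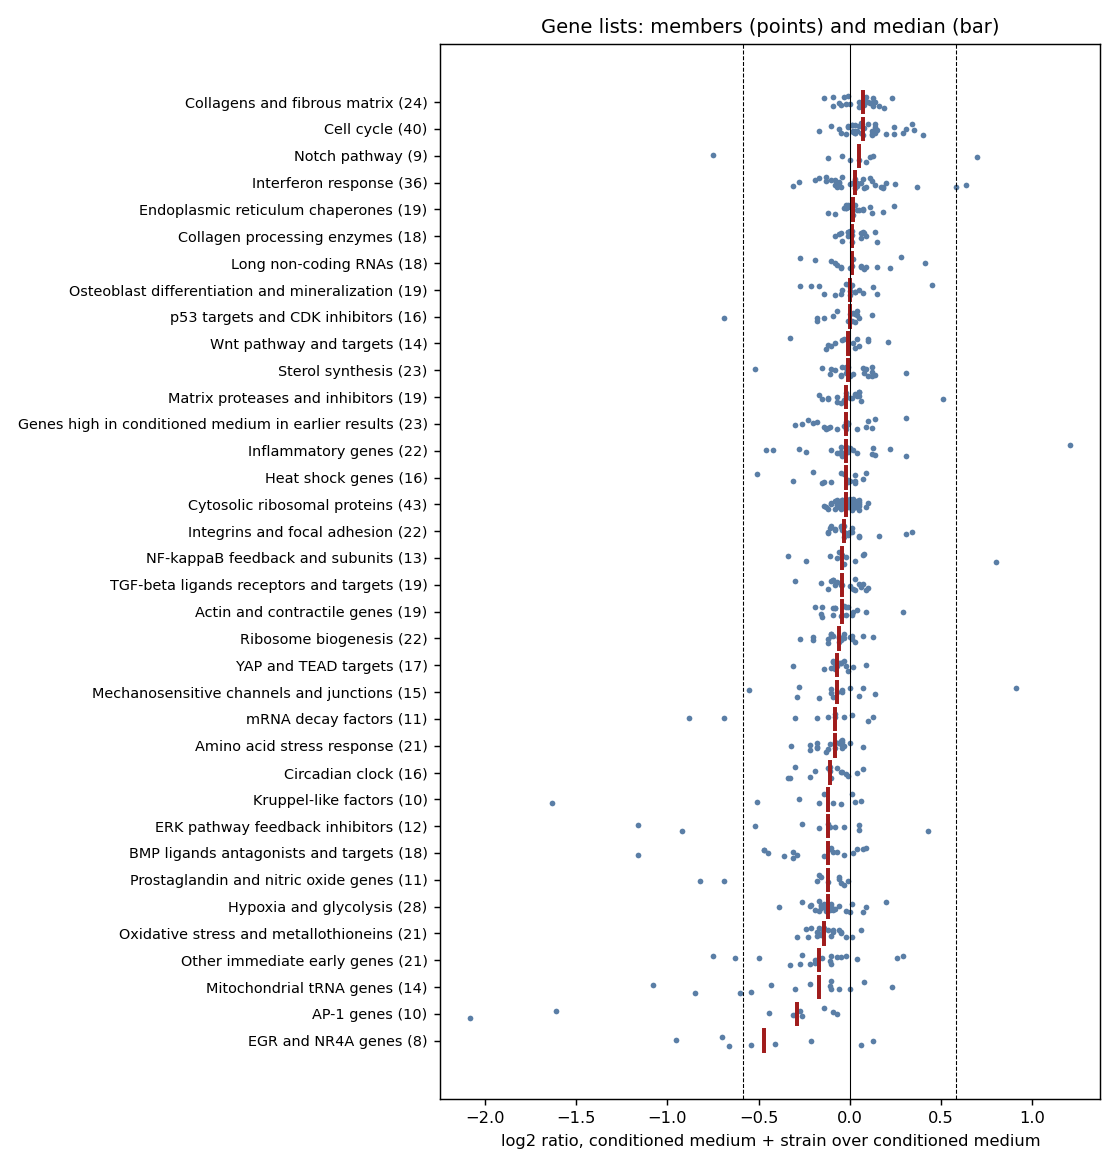
log2 ratio of each gene compared (points) and the median (red bar) for the gene lists with at least 5 members compared, with the number of members in brackets; dashed lines mark 1.5-fold. EGR and NR4A genes (-0.47) and AP-1 genes (-0.29) have the lowest medians, and cell cycle genes and collagens (0.07 each) the highest.

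Depth set which genes could be called at all. Of 1965 genes with 30 to 99 counts, 24 were 2-fold lower and 14 higher, where the central 90% of ratios ran from 0.645 to 1.46. Long non-coding RNAs made up 15 of the 45 genes past 2-fold, or 2.66% of the 564 compared, against 0.233% of 11167 protein-coding genes. Their median count in the higher library was 67.0, against 411 for protein-coding genes. Protein-coding genes split by length into short, middle and long classes all had a median log2 ratio of -0.03.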

How the data were processed

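Transcript levels came from 4 RNA-seq libraries, 1 per group, made from Trizol-extracted total RNA with a directional NEBNext Ultra kit per the labels' protocols. HISAT2 and the build mm9 are named in the submitters' processing notes. The table's positions are read as GRCm38, since 28748 of 40033 genes matched by Entrez number (71.8%) share chromosome and start with RefSeq GRCm38.p6. The table the authors deposited holds, per the file headers, a count and an RPKM for every gene in each library. The counting tool, its strand setting and its treatment of multiply placed reads are not given. RPKM recomputed from counts, length and column total differed by a relative 5.05e-06 at most.

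For each gene the share of counts was divided between the libraries compared. The 95% interval derives from the exact Clopper-Pearson interval of the counts in the first library out of both. PCR copies are not independent molecules, so it covers counting error only. A gene was compared if its higher library had 30 counts or more, and called at 2-fold, or at 1.5-fold for lists. No p-value was computed. Named were all genes past 2-fold, the 15 higher and 15 lower genes with the interval bound nearest 1 farthest from 1, and list members as examples. The members and lists were chosen with earlier results of these data known. Mitochondrially encoded protein and ribosomal RNA genes were not analysed here. A gene that met the rule is not reported here. The calculation was tested on simulated data (scipy 1.17.1, numpy 2.4.6). Alternatives used totals scaled by edgeR 4.0.16 (TMM) and DESeq2 1.42.0 size factors, other count minimums, log2(RPKM + 1) and log2(RPKM + 0.1), protein-coding genes only and T and L exchanged; totals without the ribosomal locus and genes overlapping no other were added after seeing the data.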

Additional observations from a re-analysis of the deposited data

Results flagged for a closer look

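In 5 genes a 2-fold difference with strain in conditioned medium stood against a difference of at least 1.5-fold the other way with strain in ordinary medium, a contrast that was not tested. All had fewer than 100 counts in the higher conditioned-medium library. AU021092 had a ratio of 2.43 in conditioned medium, at 0.948 RPKM without and 2.31 RPKM with strain, and was 1.51-fold lower (0.856 to 2.70) in ordinary medium. Gm30948 had a ratio of 2.79 in conditioned medium and was 1.61-fold lower (0.896 to 2.96) in ordinary medium. Gm40820 had a ratio of 0.243 and was 1.71-fold higher (0.796 to 3.84) in ordinary medium. Ssc4d, a scavenger receptor family gene, had a ratio of 0.399 and was 1.56-fold higher (0.967 to 2.53). For these 4 genes the counting interval in ordinary medium includes 1. Mir7084, which lies within Elof1 on the same strand, had a ratio of 0.412 and was 2.56-fold higher (1.08 to 6.73), and its reads and those of Elof1, at 276 and 323 counts with and without strain, cannot be told apart.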

How the results depend on the processing

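No paired analysis was possible because each group is 1 library. Numbers below are genes 2-fold higher and lower, then 1.5-fold higher and lower. Under TMM, DESeq2 size factors, log2(RPKM + 0.1) and totals without the ribosomal locus all 4 stayed within 1.5 times the values reported, and the share of higher calls at 1.5-fold, 40%, was 45.5% with TMM and 47.1% with DESeq2. A minimum of 10 counts gave 171, 264, 445 and 632 genes, 100 counts gave 0, 7, 16 and 29, and no minimum gave 2803, 3241, 3737 and 4288. On log2(RPKM + 1), which understates low genes, they were 2, 10, 26 and 40. Protein-coding genes alone gave 6, 20 and 61, with the 1.5-fold lower count within 1.5 times. Genes overlapping no other, chosen after seeing the data, gave 6, 18, 53 and 89. With T and L exchanged they were 108, 114, 351 and 515, and of the named genes compared Gm15283 changed direction, to a ratio of 1.04. Under that exchange Fosb had a ratio of 0.315, Fos 0.361, Klf2 0.529, Dusp1 0.673 and Id1 0.399. Apart from fewer or more genes entering, the cause of these changes was not tested. The median of all genes was -0.03, -0.01 with TMM and 0.00 with DESeq2; with DESeq2, 5878 of 11910 genes were below a ratio of 1 and 55 of the 72 early and feedback genes. All 38 list medians moved by no more than 0.1 (log2) under every scaling, count minimum and pseudocount run. With T and L exchanged 24 of them moved by more, with AP-1 genes at -0.05, EGR and NR4A genes at -0.83 and cell cycle genes at -0.84. With 1 library a group the spread between cultures is unknown, and below 100 counts the intervals are wide.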

Other observations

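Some signalling genes outside the early response stood at the edge of the sizes used. P2ry2, a receptor for extracellular ATP that takes part in the calcium response of loaded bone cells, had 1.87, 1.61, 0.796 and 1.5 RPKM in control, strain, conditioned medium and conditioned medium plus strain. The conditioned-medium library was the low value, and with strain added P2ry2 was 1.88-fold higher (1.14 to 3.18) on 46 against 26 counts. The mechanosensitive channel gene Piezo1 had 26, 29.5, 30.2 and 29.5 RPKM, a fold of 1.03 lower (0.974 to 1.08). Psmb9, an immunoproteasome subunit, had 7.46, 6.69, 5.75 and 8.96 RPKM and was 1.56-fold higher (1.12 to 2.17), while the interferon list had 21 of 36 genes higher and a median log2 ratio of 0.03, against -0.27 for strain in ordinary medium. Mitochondrial tRNA genes were lower in 11 of 14, with TrnG at 86.9, 114, 153 and 85.2 RPKM and a 1.80-fold lower value (1.30 to 2.51). Circadian clock genes were lower in 14 of 16 with a median of -0.11 and 0 past 1.5-fold. Under DESeq2 size factors 12 of the 16 were lower, with a median of -0.07.

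The AU-rich nonamer TTATTTATT, searched on the sense strand of annotated 3′ untranslated regions, was found in 4 of 25 protein-coding genes (16%) that were 1.5-fold lower with at least 100 counts, namely Dusp1, Fos, Ptgs2 and Zfp36. It was found in 7.59% of 9403 protein-coding genes with 100 counts, and in 2 of 7 genes that were 1.5-fold higher, Kctd13 and Rel. These are counts of letters, with no test.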
